A study of Homo sapiens with 12 samples.

Results

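GSK2801, a small-molecule inhibitor of the bromodomains of BAZ2A and BAZ2B, was compared with its solvent DMSO in 3 established triple-negative breast cancer cell lines. The comparison rests on 6 of the 12 libraries of polyadenylated RNA in the series, chosen by their treatment labels: 3 from cells given 10 µM GSK2801 for 72 h and 3 from cells given DMSO for 72 h. Each group held 1 library of SUM159, 1 of MDAMB231 and 1 of HCC1806, so each GSK2801 library was paired with the DMSO library of its own line. The other 6 libraries came from the same lines after 72 h with JQ1, an inhibitor of the BET bromodomain proteins, together with 10 µM GSK2801 or without it. The JQ1 dose differed by line: SUM159 received 300 nM, MDAMB231 100 nM and HCC1806 500 nM. Those libraries serve here to ask whether the same differences appeared when GSK2801 was added to other cultures, to test the difference between the effects with and without JQ1, and in a joint fit of all 6 pairs. HCC1806 was grown in RPMI 1640 and serum, whereas SUM159 and MDAMB231 had DMEM/F12, serum, and the hormones insulin and hydrocortisone, so line and medium cannot be told apart. With 1 library per line and treatment, the errors given below rest on the spread between lines, moderated by limma towards that of genes of like signal, and repeat cultures of 1 line were not part of the design. Errors of the joint fit also hold the spread between the settings with and without JQ1.

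BAZ2A and BAZ2B are subunits of chromatin remodelling complexes of the ISWI type, and their bromodomains bind acetylated histone tails. BAZ2A is best known as a part of the complex that silences ribosomal RNA genes. Much of what follows concerns genes of a pair of ligand-activated transcription factor systems. The PPAR receptors bind fatty acids and related compounds and, as partners of RXR, switch on genes for fatty acid uptake, transport, storage and oxidation. The aryl hydrocarbon receptor binds planar aromatic compounds in the cytoplasm, enters the nucleus, pairs with ARNT and switches on genes that oxidise foreign compounds, CYP1A1 foremost.

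Values are the deposited signal, read estimates that had been scaled to the same upper quartile in each library. Log2 differences are means over the 3 lines of log2(signal + 1), GSK2801 over DMSO, with the standard error (SE) of a limma fit that holds the line as a block. A gene passed at a Benjamini-Hochberg adjusted p below 0.05 over all 12401 genes tested, those with a mean signal of at least 50 over the 6 libraries. Estimated reads came to between 24200000 and 36300000 in these 6 libraries, with signal above 0 for 16159 to 16797 genes. Of the receptors that define triple-negative cells, ESR1 reached at most 112 and PGR at most 12.1 in the 6 libraries, and ERBB2 stood between 1749 and 4764. VIM, a filament of mesenchymal cells, stood at 90380.3 in SUM159 and 91479.9 in MDAMB231 with GSK2801, and at 120.4 in HCC1806. EPCAM, an epithelial adhesion gene, stood at 15287 in HCC1806 with GSK2801, against 7.87 in SUM159 and 347 in MDAMB231.

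No gene passed in the comparison of GSK2801 with DMSO (0 of 12401, 0% called), and the smallest adjusted p was 0.192. At an unadjusted p below 0.05 there were 1803 genes (14.5%), of which 1048 were higher (8.45%) and 755 lower (6.09%). A total of 2602 genes (21%) were higher in all 3 lines and 2298 (18.5%) lower in all 3. The differences described below are therefore values with their spread, and none of them passed on these 6 libraries alone. Past 1.5-fold in all 3 lines were 9 genes with higher signal (0.0726% of those tested) and 14 with lower signal (0.113%). ANGPTL4, PDK4 and FABP4 were the 3 genes past 2-fold higher in every line (0.0242%), and 0 genes were past 2-fold lower in every line. An exact test on the signs of 3 pairs cannot give a two-sided p below 0.25.

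The sequences of 2 promoters are shown because their genes had high-ranking differences and their windows hold the letters known to be bound by each receptor system. Both come from RefSeq on the build GRCh38.p14 and run 5′ to 3′ along the gene's strand, with 250 bases before the annotated start and 50 after it. In the first, the upstream stretch of CYP1A1 (chr15:74725479-74725778, minus strand), capitals mark GCGTG, the core of the element bound by the aryl hydrocarbon receptor with ARNT. In the second, the stretch upstream of CREB3L3 (chr19:4153381-4153680, plus strand), capitals mark a match to AGGNCANAGGNCA, the direct repeat bound by PPAR with RXR.
CYP1A1: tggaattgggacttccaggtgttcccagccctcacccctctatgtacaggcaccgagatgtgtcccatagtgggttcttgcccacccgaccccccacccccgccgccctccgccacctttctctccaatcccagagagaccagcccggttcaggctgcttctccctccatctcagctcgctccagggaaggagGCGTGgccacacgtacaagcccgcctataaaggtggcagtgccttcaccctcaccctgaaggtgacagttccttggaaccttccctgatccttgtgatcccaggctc
CREB3L3: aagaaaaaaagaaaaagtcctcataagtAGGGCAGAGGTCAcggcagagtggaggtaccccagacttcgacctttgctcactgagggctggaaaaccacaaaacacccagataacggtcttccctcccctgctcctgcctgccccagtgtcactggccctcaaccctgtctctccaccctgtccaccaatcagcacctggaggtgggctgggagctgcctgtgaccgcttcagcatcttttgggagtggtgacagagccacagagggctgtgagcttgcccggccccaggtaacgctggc
Searched on both strands, GCGTG occurred in 12832 of 35116 RefSeq promoter windows of this length (36.5%). For the lists, genes were counted: a gene with several windows counted once, as a match if any window matched. Of 12 aryl hydrocarbon receptor list genes with a window, 8 (66.7%) had GCGTG. AGGNCANAGGNCA occurred in 109 of 35116 windows (0.31%) and in 1 of the 38 PPAR-regulated lipid list genes with a window (2.63%), CREB3L3. Shares of genes and shares of windows are unlike measures, since a gene with more windows has more places to match. A match describes these letters in these windows and no more.

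Transcripts of the drug's own targets differed little between the treatments. BAZ2A signal stood at 4545 in SUM159, 4375 in MDAMB231 and 3407 in HCC1806 with GSK2801, against 4816, 4205 and 3254 with DMSO. Its log2 difference was 0.01 ± 0.05 SE, with a 95% interval of −0.10 to 0.13. BAZ2B signal was 598, 498 and 925 with GSK2801, against 612, 440 and 845 with DMSO, a log2 difference of 0.09 ± 0.07 SE (interval −0.09 to 0.27). BRD9, a bromodomain gene of the BAF remodelling complexes, stood at −0.00 ± 0.04 SE. Across 15 tested genes of the targets, their partners and related bromodomain proteins, 1 (6.67%, beside 21% of all genes) was higher in all 3 lines. A further 3 (20%, beside 18.5%) were lower in all 3, and the median log2 difference was 0.01, against 0.01 over all genes tested. SMARCA1, an ISWI motor gene, had the largest mean value of these (0.21 ± 0.10 SE), with a log2 ratio of −0.09 in MDAMB231. Inhibition of a bromodomain acts on the protein and was not measured here.

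The genes of the PPAR receptors and their partners also stood close to their DMSO levels. PPARG signal stood at 1213 in SUM159, 2527 in MDAMB231 and 1635 in HCC1806 with GSK2801, against 1300, 2637 and 1731 with DMSO, slightly lower in each line (−0.08 ± 0.04 SE). PPARA stood at 0.17 ± 0.08 SE and PPARD at −0.01 ± 0.07 SE. Among 11 receptor, partner and cofactor genes tested, PPARGC1B was the 1 gene higher in all 3 lines (9.09%, beside 21% of all genes). This coactivator of mitochondrial genes had 506, 445 and 537 with GSK2801, against 348, 399 and 404 with DMSO (0.37 ± 0.10 SE, adjusted p = 0.231 by limma). NRIP1, a corepressor of nuclear receptors, had a log2 difference of −0.22 ± 0.09 SE, made of −0.30 in MDAMB231 and −0.40 in HCC1806 with 0.05 in SUM159.

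Many PPAR-regulated lipid genes had higher signal with GSK2801, in each of the 3 lines. The list was chosen with earlier results of these data known, so the shares below describe it and are not a test. Of 51 genes on the list, 44 had enough signal to be tested; 28 of these 44 (63.6%) were higher in all 3 lines and 0 were lower in all 3, against 21% and 18.5% of all genes tested. Among the 28, FABP4, CD36, PLIN1, PLIN2 and CREB3L3 had signal near the floor in at least 1 line, where the sign rests on few reads. CREB3L3 in HCC1806 had 1.17 with GSK2801 and 1.07 with DMSO, the value of 1 read in each library. At an unadjusted p below 0.05, 21 of the 44 were higher and 0 lower, beside 8.45% and 6.09% of all genes. The median log2 difference of the 44 was 0.21, with line medians of 0.29 in SUM159, 0.14 in MDAMB231 and 0.19 in HCC1806. Below the signal filter lay 7 members, among them PLIN5, ACADL, FABP3, ACOT1, CYP4A11 and FGF21; CYP4A11 was listed at 0 in all 6 libraries.

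ANGPTL4 shared the smallest adjusted p of the list with PDK4 and VLDLR. It encodes a secreted inhibitor of lipoprotein lipase and is a standard PPAR response gene. Its signal stood at 728 in SUM159, 1700.1 in MDAMB231 and 1258 in HCC1806 with GSK2801, against 196, 706 and 461 with DMSO. Every GSK2801 library lay above every DMSO library, by the least between SUM159 with GSK2801 and MDAMB231 with DMSO. The log2 difference was 1.53 ± 0.13 SE (2.90-fold; adjusted p = 0.192 by limma).

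PDK4 encodes the kinase that shuts off pyruvate dehydrogenase and so spares glucose while fat is burned. Its signal stood at 996 in SUM159, 119 in MDAMB231 and 38.7 in HCC1806 with GSK2801, against 457, 39.2 and 14.9 with DMSO. The lines differed in level by more than the treatments did, and within each line GSK2801 was more than 2-fold higher. The log2 difference was 1.34 ± 0.16 SE (adjusted p = 0.192 by limma). ANGPTL4 and PDK4 also belong to the list of 14 glucocorticoid receptor genes, of which 3 (21.4%) were higher in all 3 lines and 2 (14.3%) lower, close to the 21% and 18.5% of all genes. At an unadjusted p below 0.05 by limma, 3 of the 14 were higher and 2 lower, beside 8.45% and 6.09% of all genes. In the joint fit of all 6 pairs, 2 of the 14 (14.3%, beside 2.14%) passed as higher, ANGPTL4 and PDK4 themselves. Neither passed with 1 mean per line.

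Among genes for the uptake and binding of lipids, FABP4, VLDLR and CD36 were higher in each line and FABP5 was not. FABP4, a cytoplasmic fatty acid carrier, had 982 in SUM159, 1.62 in MDAMB231 and 29.3 in HCC1806 with GSK2801, against 177, 0 and 9.61 with DMSO. The MDAMB231 pair lies at the floor of the assay, with DMSO listed at 0, so the ratio there depends on the added 1. VLDLR, a receptor that takes up triglyceride-rich lipoproteins, had 709, 850 and 373 with GSK2801, against 360.0, 511 and 221 with DMSO (0.82 ± 0.09 SE, 1.77-fold, adjusted p = 0.192 by limma). CD36, a membrane fatty acid transporter, was high in SUM159 alone, at 1089 with GSK2801 and 252 with DMSO. In the other lines CD36 lay at 3.25 and 4.69 with GSK2801, against 1.51 and 3.2 with DMSO. FABP5, another fatty acid carrier, had 1111, 2696 and 1597 with GSK2801, against 1243, 2599 and 1581 with DMSO (−0.03 ± 0.06 SE).

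The entry of fatty acids into mitochondria and their oxidation showed smaller differences spread over many genes. CPT1A, the outer membrane transferase that sets the pace of fatty acid entry, had 2168 in SUM159, 3285 in MDAMB231 and 10449.8 in HCC1806 with GSK2801, against 1793, 2231 and 8359.9 with DMSO. Each line was higher with GSK2801, by 0.27, 0.56 and 0.32 on the log2 scale (mean 0.38 ± 0.06 SE, 1.31-fold, adjusted p = 0.206 by limma). SLC25A20, the carnitine carrier, stood at 0.29 ± 0.11 SE and CPT2, the inner transferase, at 0.09 ± 0.06 SE. The acyl-CoA dehydrogenase genes ACADVL (0.31 ± 0.05 SE) and ACADS (0.45 ± 0.11 SE) were higher in all 3 lines, while ACADM stood at 0.03 ± 0.06 SE. Electron transfer from these enzymes runs through ETFA (0.16 ± 0.04 SE), ETFB (0.29 ± 0.07 SE) and ETFDH (0.26 ± 0.07 SE), and each was higher in all 3 lines.

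ACSL1 activates fatty acids by joining them to coenzyme A. Its signal stood at 13912 in SUM159, 1457 in MDAMB231 and 793 in HCC1806 with GSK2801, against 9027, 1263 and 522 with DMSO (0.48 ± 0.09 SE). The related ACSL3, ACSL4 and ACSL5 were each lower with GSK2801 in 1 line and higher in the others. PNPLA2, the first lipase of stored fat, had 7436, 2777 and 1629.8 with GSK2801, against 4545, 2239 and 1269.7 with DMSO (0.46 ± 0.08 SE). PLIN2, a coat protein of lipid droplets, had 4922 in MDAMB231 and 2426 in HCC1806 with GSK2801, against 3089 and 1537 with DMSO, and lay near the floor in SUM159 at 8.75 and 8.2. PLIN1, the droplet coat protein of fat cells, had 382 in SUM159 with GSK2801 and 42.2 with DMSO, and at most 8.2 in the other lines.

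CREB3L3, a transcription factor of hepatic lipid metabolism whose promoter is printed above, had the largest mean log2 difference of the list, 2.14 ± 0.68 SE. Its signal stood at 303 in SUM159, 17.9 in MDAMB231 and 1.17 in HCC1806 with GSK2801, against 38.7, 0.75 and 1.07 with DMSO. The difference was large in SUM159 and MDAMB231, on low signal in the second, and not detectable at this depth in HCC1806.

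**Figure D1:**
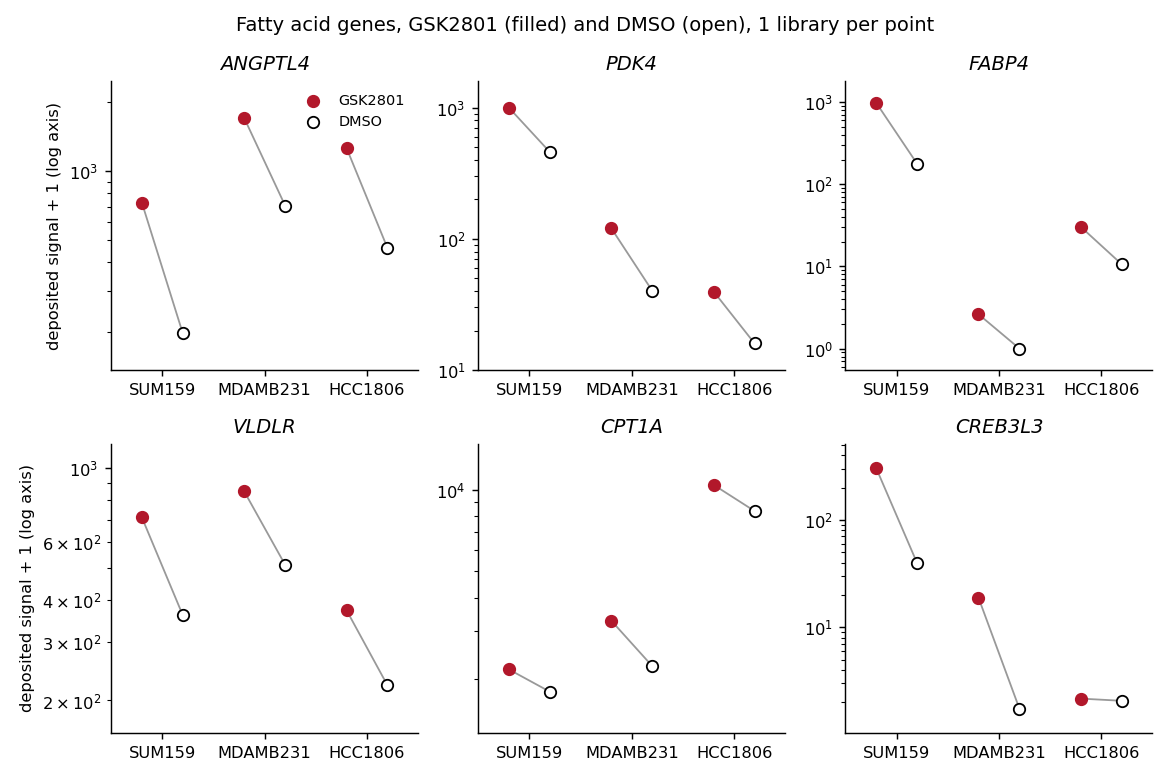
Deposited signal plus 1 (log axis) of 6 fatty acid genes in each line; filled red points are the GSK2801 libraries, open points the DMSO libraries of the same line, and grey lines join a pair. ANGPTL4, PDK4, VLDLR and CPT1A stood higher with GSK2801 in all 3 lines at readable signal, while FABP4 in MDAMB231 and CREB3L3 in HCC1806 lay near 0.

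Because several of these genes mark fat cells, the markers of other cell types were examined. ADIPOQ and LEP, hormones made by adipocytes, were listed at 0 in every GSK2801 library and reached at most 1.17 with DMSO. Over the 12 fibroblast and adipocyte markers the summed signal stood at 51347 in SUM159, 175 in MDAMB231 and 428 in HCC1806 with GSK2801, against 59823, 209.5 and 394 with DMSO. Of 8 tested, 2 (25%, beside 21% of all genes) were higher in all 3 lines, FABP4 and PLIN1, which are also on the lipid list. The 14 luminal breast markers summed to 16584, 18930.1 and 69512 with GSK2801, against 16770.4, 21902 and 68631 with DMSO. The 12 blood and endothelial markers summed to 2462, 4179.6 and 1296 with GSK2801, against 2415, 3417 and 1036 with DMSO, and the globin gene HBB was listed at 0 in all 6 libraries. Their part in the other results was not tested. In bulk RNA, fewer cells of a type and less RNA per cell cannot be told apart.

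Genes of lipid synthesis had medians closer to that of all genes than the PPAR-regulated list. Of 27 genes of cholesterol synthesis and uptake, 4 (14.8%, beside 21% of all genes) were higher in all 3 lines and 4 (14.8%, beside 18.5%) lower. Their median was −0.01, with line medians of −0.16 in SUM159, −0.08 in MDAMB231 and 0.18 in HCC1806. ACAT2, a cytosolic thiolase that makes acetoacetyl-CoA, had 979.8, 2053 and 545 with GSK2801, against 1430.0, 2619 and 614 with DMSO (−0.36 ± 0.08 SE). INSIG2, which holds back sterol synthesis, stood at 0.33 ± 0.08 SE. Among 17 fatty acid synthesis and desaturation genes, 4 (23.5%, beside 21% of all genes) were higher in all 3 lines and 0 lower, with a median of 0.07. LPCAT3, an LXR-regulated gene of phospholipid remodelling, had 4674, 1949.6 and 6896 with GSK2801, against 3116, 1604 and 5036 with DMSO (0.44 ± 0.06 SE).

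Aryl hydrocarbon receptor genes also had higher signal. Their list too was chosen with earlier results of these data known, so its shares are a description. Of 16 genes on the list, 15 were tested, 8 of these (53.3%, beside 21% of all genes) were higher in all 3 lines and 0 were lower in all 3. Their median log2 difference was 0.21, with line medians of 0.21 in SUM159, 0.12 in MDAMB231 and 0.38 in HCC1806. At an unadjusted p below 0.05, 7 of the 15 were higher and 0 lower, beside 8.45% and 6.09% of all genes.

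CYP1A1, the monooxygenase used most often as a readout of this receptor, had 119 in SUM159, 127 in MDAMB231 and 2257 in HCC1806 with GSK2801, against 32.8, 91.2 and 1338 with DMSO. The ratio was largest in SUM159 (log2 1.83) and smaller in MDAMB231 (0.48) and HCC1806 (0.75), with a mean of 1.02 ± 0.26 SE (2.03-fold, adjusted p = 0.223 by limma). CYP1B1, its relative that metabolises oestrogens and aromatic hydrocarbons, had 568, 1370.5 and 1656 with GSK2801, against 195, 1027 and 719 with DMSO (1.05 ± 0.21 SE, adjusted p = 0.206). TIPARP, an ADP-ribosyltransferase that restrains the receptor, stood at 0.21 ± 0.07 SE.

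The receptor gene AHR itself had 1051, 1299 and 803 with GSK2801, against 1024, 1037 and 529 with DMSO (0.32 ± 0.11 SE). EREG, a ligand of the EGF receptor, was higher in each line (0.32 ± 0.06 SE). Other members varied between lines. AHRR, the repressor of the receptor, had 645 in SUM159 with GSK2801 and 379 with DMSO, and was lower with GSK2801 in MDAMB231 (37.1 against 40.7) and HCC1806 (188 against 225). CYP2S1 had a log2 ratio of 1.61 in SUM159, beside 0.12 and 0.32 in the other lines. UGT1A6, whose first exon is its own but whose other exons are shared with neighbouring UGT1A transcripts, had 135 and 693 in SUM159 and HCC1806 with GSK2801, against 28.1 and 415 with DMSO, and was listed at 0 in MDAMB231. ALDH1A3 and ARNT2 had means below 0 (−0.38 ± 0.32 SE and −1.14 ± 0.65 SE), and without SUM159 the mean of ALDH1A3 was 0.096.

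NRF2 drives genes of glutathione, quinone and iron handling and shares the quinone reductase gene NQO1 with the aryl hydrocarbon receptor list. Of 31 NRF2 genes tested, 17 (54.8%, beside 21% of all genes) were higher in all 3 lines and 1 was lower, with a median of 0.11. AKR1C2, an aldo-keto reductase with near-identical relatives among which reads can be divided, had 17052 in SUM159, 2.24 in MDAMB231 and 1305 in HCC1806 with GSK2801, against 7143, 0.75 and 686 with DMSO (1.02 ± 0.11 SE, adjusted p = 0.192 by limma). The MDAMB231 pair of AKR1C2 lies near the floor, so the ratio there depends on the added 1. Its relative AKR1C1 did not have the same sign in all 3 lines. FTH1, the heavy chain of the iron store ferritin, had 132809, 33812 and 23007 with GSK2801, against 72996, 25442 and 19974 with DMSO (0.49 ± 0.12 SE). NQO1 had 11565, 3871 and 4122 with GSK2801, against 8345, 3506 and 4006 with DMSO (0.22 ± 0.08 SE). The 1 lower member, GPX2, had 162 in HCC1806 with GSK2801 and 214 with DMSO, and lay at or below 4.52 in the other lines.

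**Figure D2:**
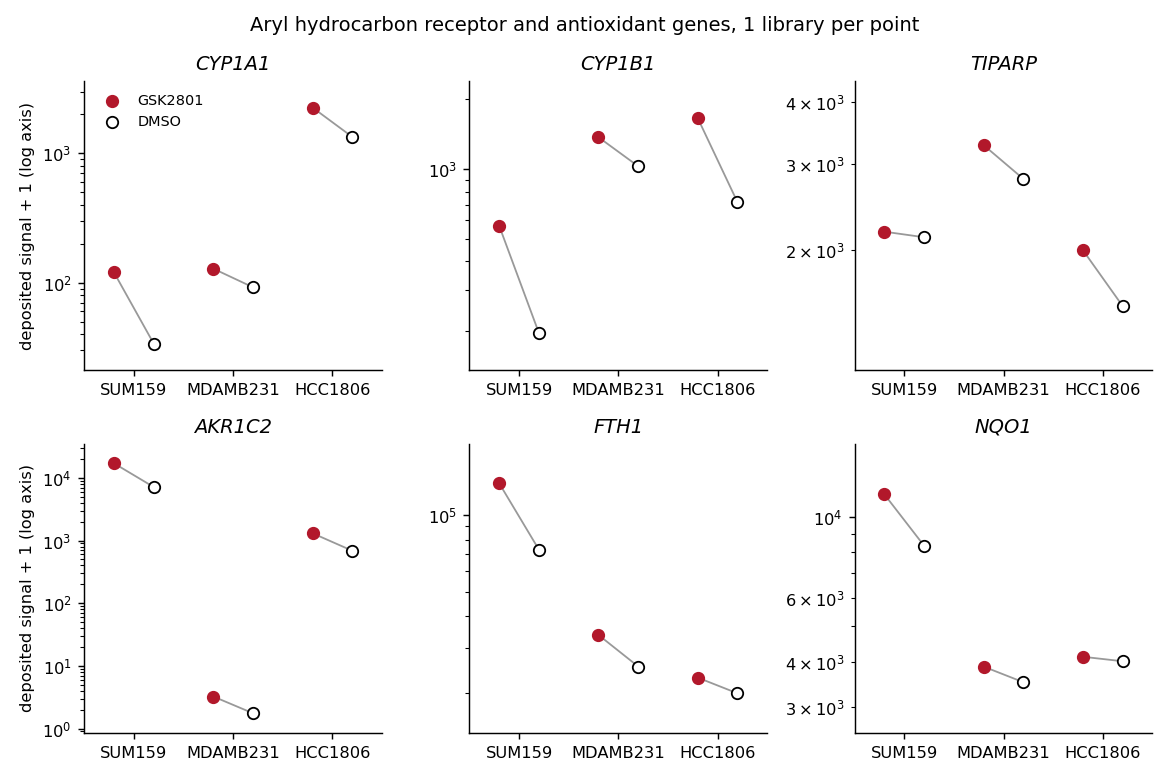
Deposited signal plus 1 (log axis) of 4 aryl hydrocarbon receptor genes (CYP1A1, CYP1B1, TIPARP and NQO1) and the NRF2 genes AKR1C2 and FTH1, drawn as pairs of libraries by line with GSK2801 filled and DMSO open. All 6 genes stood higher with GSK2801 in each line, and the gap was widest in SUM159 for CYP1A1 (119 against 32.8), CYP1B1, AKR1C2, FTH1 and NQO1.

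Further lists of higher signal were autophagy and lysosome, hypoxia and glycolysis, and ATF4 genes. Of 42 autophagy and lysosome genes, 16 (38.1%) were higher in all 3 lines and 3 (7.14%) lower, beside 21% and 18.5% of all genes. Their median was 0.09, and 0.02 in HCC1806. SQSTM1, which ties ubiquitylated cargo to autophagosomes, had 14394, 11764 and 6167 with GSK2801, against 9303, 9295 and 5183 with DMSO (0.41 ± 0.08 SE). PSAP, the precursor of the saposins of lysosomal lipid breakdown, stood at 0.32 ± 0.05 SE, and GRN, a lysosomal growth factor precursor, at 0.27 ± 0.06 SE. Of 39 hypoxia and glycolysis genes, 17 (43.6%) were higher in all 3 lines and 0 lower, with a median of 0.15, but the HCC1806 median was −0.00. NDRG1, a stress-responsive gene raised by low oxygen, had 1360.4, 1202 and 1799 with GSK2801, against 852, 907 and 1279 with DMSO (0.52 ± 0.07 SE). Of 32 ATF4 and endoplasmic reticulum stress genes, 16 (50%) were higher in all 3 lines and 1 lower, with a median of 0.07, and 0.03 in SUM159. The lower member was ATF5. ATF4 itself, ATF3, TRIB3 and CHAC1 did not have the same sign in all 3 lines. SLC7A5, the large neutral amino acid transporter, stood at 0.37 ± 0.06 SE. ASNS, asparagine synthetase, had 2018 and 1087 in MDAMB231 and HCC1806 with GSK2801, against 1234 and 629 with DMSO, and nearly equal values in SUM159 (2097 against 2061).

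Some further genes of known function were higher, or lower, in all 3 lines. SLC30A1, the zinc exporter, had 5030.3, 2298 and 4644 with GSK2801, against 3912, 1873 and 3581 with DMSO (0.34 ± 0.04 SE, adjusted p = 0.192 by limma). MYC had 8959, 7916 and 8906 with GSK2801, against 7482, 6825 and 7428 with DMSO (0.25 ± 0.04 SE), and BRD2, a BET protein gene, stood at 0.30 ± 0.05 SE. HAS2, which makes hyaluronan, had 217, 571 and 1124 with GSK2801, against 289, 1013 and 2375 with DMSO, lower in each line (−0.77 ± 0.13 SE). TGFB2, a secreted growth factor, was lower by a like amount in each line, with log2 ratios of −0.42, −0.36 and −0.52 (mean −0.44 ± 0.05 SE, adjusted p = 0.192 by limma).

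The inflammatory, interferon and DNA replication lists had medians below 0. Of 25 NF-kB and secreted inflammatory genes tested, 10 (40%, beside 18.5% of all genes) were lower in all 3 lines and 3 (12%, beside 21%) higher, with a median of −0.17. That median came from MDAMB231 (−0.31) and HCC1806 (−0.14), while SUM159 stood at 0.06. When GSK2801 was added to JQ1, the list median was −0.005, beside 0.003 over all genes. IL6, a cytokine of the list, was among the 3 members higher in all 3 lines without JQ1. BIRC3, an inhibitor of cell death induced by NF-kB, had 922, 5140.0 and 80.8 with GSK2801, against 1549, 6392 and 126 with DMSO (−0.57 ± 0.09 SE). CXCL1, a neutrophil chemokine, had 56.0 in MDAMB231 and 60.9 in HCC1806 with GSK2801, against 106 and 136 with DMSO; in SUM159 it was listed at 0 with GSK2801 and at 9.38 with DMSO.

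The interferon list had 10 of 35 members (28.6%, beside 18.5% of all genes) lower in all 3 lines and 2 (5.71%, beside 21%) higher, with a median of −0.13 and a SUM159 median of 0.04. IFIT1, which binds viral RNA, had 79.6, 341 and 339 with GSK2801, against 112, 457 and 624 with DMSO (−0.60 ± 0.13 SE). OAS3, which makes the activator of RNase L, had 399, 469 and 4861 with GSK2801, against 526, 705 and 6214 with DMSO (−0.45 ± 0.06 SE, adjusted p = 0.206 by limma).

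DNA replication genes were slightly but broadly lower, in 27 of 46 (58.7%) in all 3 lines, with 1 higher (E2F1, 0.04), against 18.5% and 21% of all genes. The median was −0.09, and −0.16 in SUM159, −0.06 in MDAMB231 and −0.07 in HCC1806. MCM5, a subunit of the replicative helicase, had 2914, 2923 and 2849 with GSK2801, against 3237, 3231 and 3432 with DMSO (−0.19 ± 0.04 SE). GINS2, another helicase component, stood at −0.30 ± 0.08 SE and TYMS, thymidylate synthase, at −0.20 ± 0.05 SE. Mitosis genes differed most in SUM159, with a median of −0.28 there against −0.03 in MDAMB231 and −0.00 in HCC1806. Of 43 tested, 15 (34.9%, beside 18.5% of all genes) were lower in all 3 lines and 0 (beside 21%) higher. FOXM1, a transcription factor of the mitotic programme, was lower in each line (−0.27 ± 0.05 SE).

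BAZ2A is linked to ribosomal RNA genes, so the genes of ribosome production were counted as well. Of 57 ribosome biogenesis and RNA polymerase I genes, 5 (8.77%, beside 21% of all genes) were higher in all 3 lines and 19 (33.3%, beside 18.5%) lower, with a median of −0.03. When GSK2801 was added to JQ1, 19 of the 57 were higher in all 3 lines and 5 lower, with a median of 0.07. Over all genes in that setting, 23% were higher and 20.8% lower in all 3 lines. GAR1, a protein of pseudouridylation particles, stood at −0.22 ± 0.06 SE and NIP7, a factor of large subunit assembly, at −0.16 ± 0.04 SE. Of 70 cytosolic ribosomal protein genes, 30 (42.9%) were higher in all 3 lines and 4 (5.71%) lower, with a median of 0.04 that became 0.00 after quantile normalization. Libraries of polyadenylated RNA hold no measure of ribosomal RNA itself.

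**Figure D3:**
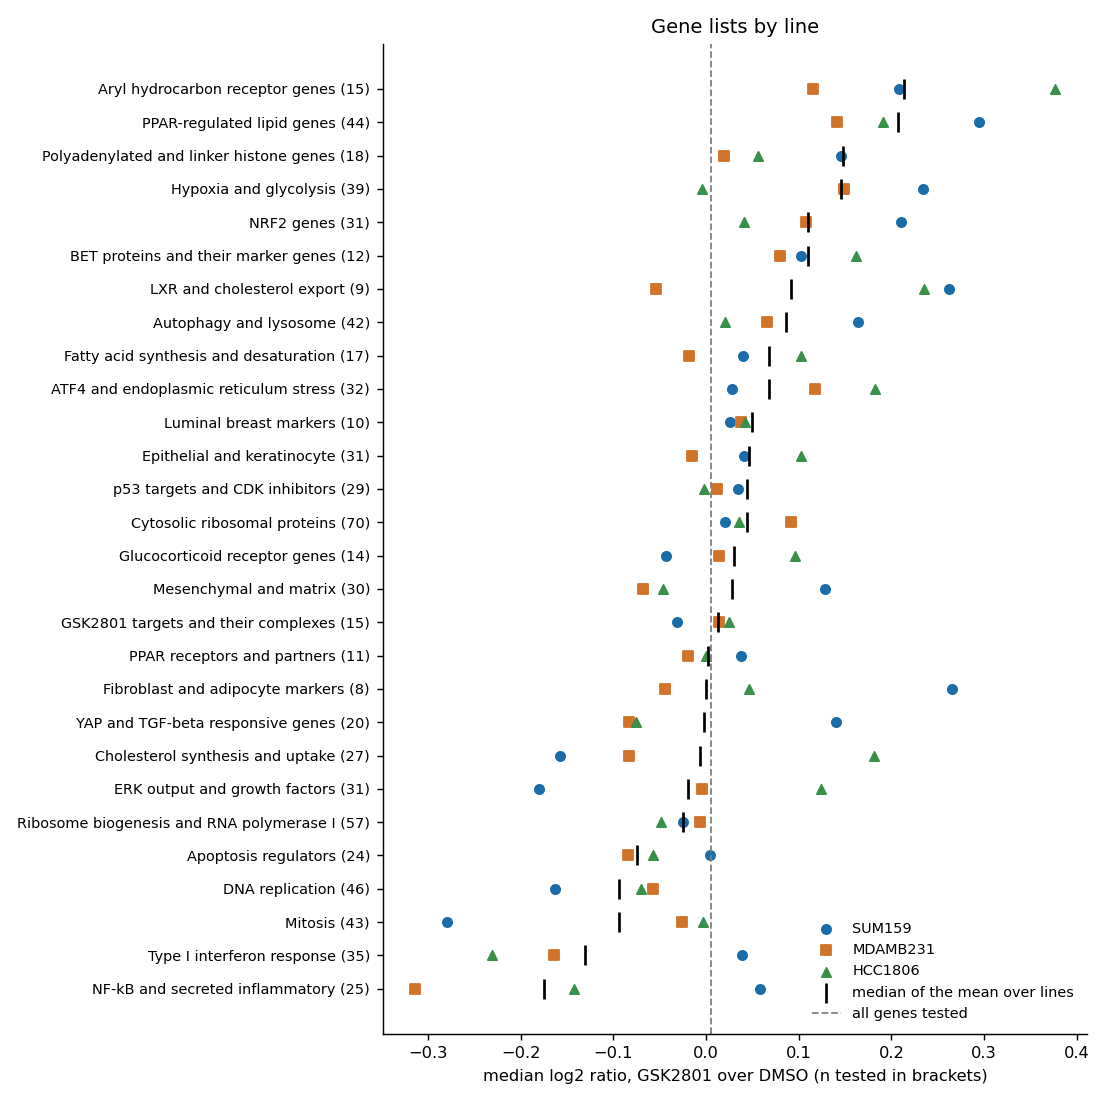
Median log2 ratio of GSK2801 over DMSO for each gene list with at least 8 tested members, by line (coloured points) and for the mean over lines (black bars), with the number of tested genes in brackets and the median of all genes tested as a dashed line. PPAR-regulated lipid and aryl hydrocarbon receptor genes lay above the dashed line in all 3 lines, DNA replication genes below it in all 3, and the interferon and NF-kB lists on different sides in SUM159 and the other lines.

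By the size of the mean log2 difference among genes of unadjusted p below 0.05 and the same sign in each line, the 12 highest included CREB3L3, FABP4, SFRP1, ANGPTL4, TMTC1, PDK4, UPK1B, HIST2H4A, PKIB, ROS1 and NTN1. Several of these owe their rank to lines with almost no signal. SFRP1, a secreted Wnt antagonist, had 6884 in HCC1806 with GSK2801 and 5185 with DMSO, and 2.62 and 4.06 in SUM159 and MDAMB231 with GSK2801, where DMSO was listed at 0. UPK1B, a membrane protein of the bladder lining, had 5610.5 in HCC1806 with GSK2801 and 4125 with DMSO, and 4.37 and 0.81 in SUM159 and MDAMB231, again with DMSO listed at 0. ROS1, a receptor tyrosine kinase gene, had 9886 in SUM159 with GSK2801 and 8323 with DMSO, and at most 4.06 elsewhere.

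HIST2H4A, a histone H4 gene with a near-identical copy, so that its own value is uncertain, had 209, 119 and 71.5 with GSK2801, against 50.8, 84.4 and 32.9 with DMSO (1.20 ± 0.30 SE). The copy, HIST2H4B, had a negative mean difference without the same sign in all 3 lines. PKIB, an inhibitor of protein kinase A, had 375, 325 and 12.9 with GSK2801, against 182, 251 and 2.06 with DMSO (1.20 ± 0.35 SE). TMTC1 had 18910.4 in SUM159 with GSK2801 and 13539 with DMSO, and a log2 ratio of 3.07 in HCC1806 on a signal of 16.4 with GSK2801 and 1.07 with DMSO.

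The 12 lowest by the same rule were FAM225B, EVI2A, CXCL1, FGF14, KLHL4, MIR137HG, GPX2, RCSD1, RASGRF1, BEAN1, SP140 and PDGFB. PDGFB, a growth factor for mesenchymal cells, had 56.0 in SUM159, 4.87 in MDAMB231 and 751 in HCC1806 with GSK2801, against 105, 15.1 and 1212 with DMSO (−1.01 ± 0.20 SE, adjusted p = 0.206 by limma). RASGRF1, an exchange factor for Ras, had 100.1 and 11.7 in MDAMB231 and HCC1806 with GSK2801, against 196 and 36.3 with DMSO. SP140, a nuclear body protein with a bromodomain of its own, had 3.6, 324 and 8.37 with GSK2801, against 9.64, 469 and 22.7 with DMSO (−1.03 ± 0.25 SE). EVI2A had 107 and 903 in SUM159 and MDAMB231 with GSK2801, against 229.9 and 1276 with DMSO; in HCC1806 it was listed at 0 with GSK2801 and at 15.1 with DMSO. The long noncoding RNA FAM225B, which has a near-identical neighbour, had 26.8 and 145 with GSK2801, against 59.4 and 202 with DMSO, and in HCC1806 was listed at 0 with GSK2801 and at 29.4 with DMSO.

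**Figure D4:**
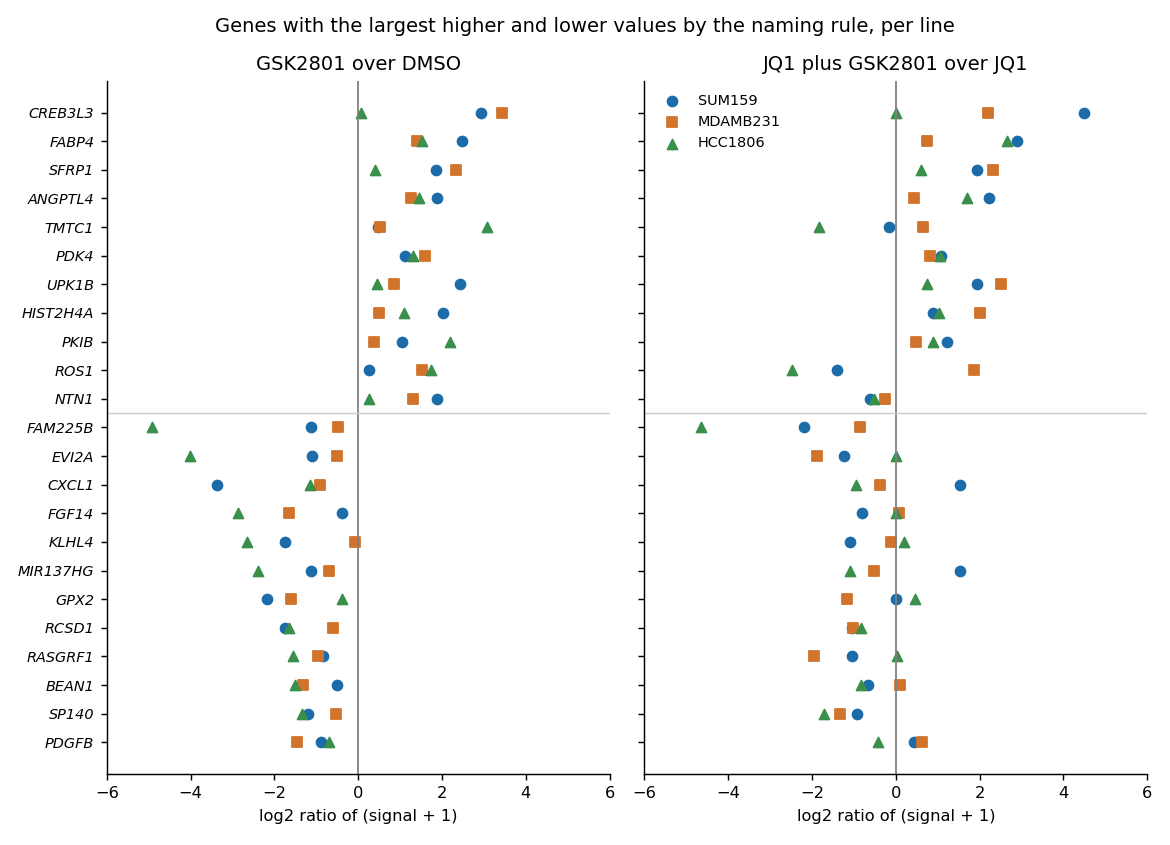
Log2 ratio of signal + 1 in each line for genes of the highest and lowest mean differences, for GSK2801 over DMSO on the left and for JQ1 plus GSK2801 over JQ1 on the right, where the libraries are different ones. ANGPTL4 and PDK4 lay above 0 in all 3 lines on both sides, while on the right TMTC1, ROS1, CXCL1 and PDGFB had mixed signs and NTN1 lay below 0 in all 3 lines.

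The lines differed in the size and make-up of the difference. Past 1.5-fold, SUM159 had 456 genes higher (3.68%) and 429 lower (3.46%), MDAMB231 had 284 higher (2.29%) and 278 lower (2.24%), and HCC1806 had 401 higher (3.23%) and 264 lower (2.13%). Across the 12401 genes, the log2 ratios of SUM159 and MDAMB231 had a Pearson correlation of 0.15 (Spearman 0.29). That of SUM159 with HCC1806 was 0.10 (0.19) and that of MDAMB231 with HCC1806 was 0.17 (0.29). These are descriptions across genes, which are not independent replicates, between lines that share no library.

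Many of the largest differences within a line came from genes near 0 on one side. In SUM159, ARMCX1 had 14.0 with GSK2801 and was listed at 0 with DMSO, AQP3, a water and glycerol channel, had 1735 against 223, and TENM2 had 0.24 against 154. In MDAMB231, CXCR5 had 218 with GSK2801 and was listed at 0 with DMSO, although it was 1455 against 964 in SUM159, and TAGLN, an actin-binding protein of smooth muscle, had 84.9 against 399. In HCC1806, SMARCA2, a motor of the BAF complexes, had 140.3 with GSK2801 and was listed at 0 with DMSO. DIP2C had 5.01 and 1.00 in SUM159 and MDAMB231 with GSK2801, against 306 and 100.4 with DMSO, and in HCC1806 388 against 39.2. Readthrough symbols such as RNASEK-C17orf49, DNAAF4-CCPG1 and BLOC1S5-TXNDC5, whose reads can be shared out among overlapping genes, also stood among the largest differences in HCC1806. Such values have no replicate within a line.

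Adding GSK2801 to JQ1 gave the same contrast in libraries that the comparison with DMSO did not use. There too no gene passed (0% called), and 2447 genes (19.7%) had an unadjusted p below 0.05. Without JQ1, 1029 genes (8.3%) were higher in all 3 lines with an unadjusted p below 0.05 and 745 (6.01%) lower. Of the 1029, 876 (85.1%) were higher on average with JQ1, against 50.6% of all genes. Of the 745, 639 (85.8%) were lower with JQ1, against 49.4% of all genes. Mean log2 differences with and without JQ1 had a Pearson correlation of 0.32 (Spearman 0.40) across genes. The libraries of both contrasts come from the same 3 lines.

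ANGPTL4 signal stood at 1037 in SUM159, 5311 in MDAMB231 and 1649 in HCC1806 with JQ1 plus GSK2801, against 222, 3957 and 507 with JQ1 alone. The log2 ratio in MDAMB231, where JQ1 alone already stood high, was the smallest of the 3. PDK4 had 586, 230.1 and 57.6 with both drugs, against 279, 131 and 27.3 with JQ1. CPT1A had 3208, 3975 and 12891 with both drugs, against 1924, 2861 and 8635 with JQ1, a log2 difference of 0.60 ± 0.08 SE beside 0.38 ± 0.06 SE without JQ1.

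CYP1A1 had 179, 579 and 3934 with both drugs, against 31.9, 242 and 829 with JQ1. Its log2 difference was 1.98 ± 0.24 SE with JQ1 and 1.02 ± 0.26 SE without it, and the difference between these, 0.96 ± 0.41 SE (95% interval 0.01 to 1.91), did not pass (adjusted p = 0.498 by limma). Without MDAMB231, the log2 difference with JQ1 was 2.35 and passed (adjusted p = 0.0387 by limma), in a fit where 7 genes passed. Without SUM159 or without HCC1806, 0 genes passed with JQ1. These alternatives for CYP1A1 with JQ1 were chosen after seeing the data. CREB3L3 had 211 and 12.0 in SUM159 and MDAMB231 with both drugs, against 8.5 and 1.83 with JQ1, and was listed at 0 in both HCC1806 libraries. CD36 and PLIN1 in SUM159 were far lower under JQ1, at 16.1 and 44.4 with both drugs and 9.56 and 8.5 with JQ1 alone. Over the 3 lines, CD36 had a mean log2 difference of −0.23 with JQ1. Of the 44 PPAR-regulated lipid genes tested, 23 were higher in all 3 lines with JQ1 and 4 lower, beside 28 and 0 without JQ1. Over all genes with JQ1, 23% were higher and 20.8% lower in all 3 lines. The list median was 0.21 in both settings.

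No gene passed the test of the difference between the effects with and without JQ1 (0% called; 1217 genes, 9.81%, at an unadjusted p below 0.05). The values nevertheless ranged widely. CD68, a lysosomal membrane glycoprotein, differed by 1.24 ± 0.11 SE with JQ1 and 0.32 ± 0.05 SE without it (adjusted p of the difference 0.321 by limma). DNA replication genes had a median of −0.24 with JQ1, beside −0.09 without, and mitosis genes −0.46, beside −0.09. NTN1, PDGFB and DDIT4 had mean values of opposite sign in the 2 settings, with DDIT4, a stress-induced inhibitor of mTORC1, at −0.42 ± 0.11 SE with JQ1 and 0.37 ± 0.08 SE without it. Without MDAMB231, PDGFB stood at −0.0055 with JQ1, no longer of opposite sign.

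**Figure D5:**
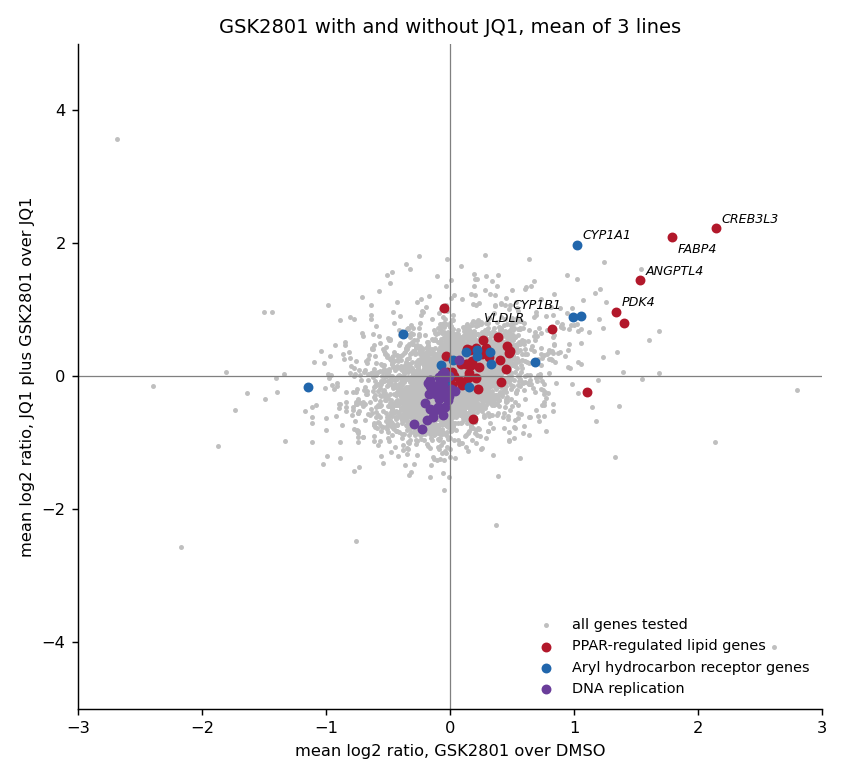
Mean log2 ratio over 3 lines of GSK2801 over DMSO (horizontal axis) and of JQ1 plus GSK2801 over JQ1 (vertical axis), 1 point per gene, all 12401 genes in grey and 3 lists in colour. ANGPTL4, PDK4, FABP4, CREB3L3, CYP1A1 and CYP1B1 stood in the upper right, and most DNA replication genes lay below 0 on the vertical axis with values close to 0 on the horizontal one.

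When the 6 pairs with and without JQ1 were fitted together, 393 genes passed (3.17% of 12401), 266 of them higher (2.14%) and 127 lower (1.02%). Pairs of 1 line are not independent of each other, so these p-values may be too small. With 1 mean per line the count was 0 (2907 at an unadjusted p below 0.05), and the fit without SUM159 or without HCC1806 also gave 0, that without MDAMB231 13, and that without a variance trend 0. Of the 44 PPAR-regulated lipid genes, 12 passed as higher and 0 as lower (27.3%, beside 2.14% and 1.02% of all genes). They included ANGPTL4 (1.49 ± 0.19 SE), PDK4 (1.16 ± 0.12 SE), FABP4 (1.94 ± 0.31 SE), VLDLR, CPT1A (0.49 ± 0.06 SE), ACSL1, PNPLA2, ACADVL, ECH1, ETFA and ETFDH. Their adjusted p lay between 0.016 for ANGPTL4, PDK4 and CPT1A and 0.048 for ECH1, and CPT1A had an adjusted p of 0.0597 with 1 mean per line. The count of 12 became 0 without SUM159 or HCC1806, 5 without MDAMB231, 7 with no filter on low signal, and 0 with line means. This list and those that follow were chosen with earlier results of these data known, so their shares are descriptions.

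Of the aryl hydrocarbon receptor genes, CYP1A1 (1.5 ± 0.25 SE), CYP1B1 (0.98 ± 0.15 SE) and AHR (0.35 ± 0.08 SE) passed, 3 of 15 (20%, beside 2.14% of all genes). Of the NRF2 genes 5 of 31 (16.1%) passed, among them AKR1C2 (0.91 ± 0.11 SE) and GCLC, the catalytic subunit of glutathione synthesis (0.30). Of the autophagy and lysosome genes 6 of 42 (14.3%) passed, SQSTM1 at 0.56 ± 0.08 SE, with PSAP, GRN, NEU1, CTSD and ATG2A, and of the hypoxia and glycolysis genes 4 of 39 (10.3%), NDRG1, KDM3A, P4HA1 and HK2. Leaving out any 1 line took each of these 4 counts to 0, and with no filter on low signal they were 2, 3, 3 and 2. Among lower genes, 1 member each of the interferon (OAS3, −0.75 ± 0.15 SE), NF-kB (BIRC3, −0.51 ± 0.07 SE) and DNA replication lists (MCM5, −0.43 ± 0.09 SE) passed; as shares of the lists, 2.86%, 4% and 2.17% lie near the 1.02% of all genes. Others that passed as lower were the interferon-induced GTPase GBP3 (−0.88 ± 0.16 SE), the nuclear factor gene TOX (−0.90 ± 0.17 SE), the hedgehog antagonist HHIP (−0.82 ± 0.18 SE) and the integrin ITGA10 (−1.62 ± 0.36 SE), whose HCC1806 pair without JQ1 stood at 8.20 with GSK2801 and 7.48 with DMSO. Each of these calls ended with 1 mean per line.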

How the data were processed

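Per the labels' protocols, total RNA was made into polyadenylated RNA libraries; the labels name both a KAPA Stranded and an Illumina TruSeq kit, so the strand setting is unsettled and overlapping or antisense genes may share reads. Per the submitters' processing notes, the authors used STAR 2.4 and Salmon 0.60 on hg38; the annotation, filters and roles of the tools are not given in the sources used here. The deposited value per gene is a signal: a constant step fitted 67.1% to 69.2% of a library's nonzero values as whole multiples (tolerance 0.02), and the upper quartile of values above 0 was 1663.93 in each library, so levels are relative and no counting interval was computed. Of 28539 entries, 27 symbols turned into dates (0.168% to 0.218% of signal) were left out. Gene positions and sequences are from GENCODE v29 (12232 of 12401 symbols matched) and RefSeq.

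Computed here from the deposited signal: log2(signal + 1), genes of mean at least 50, limma 3.58.1 in R 4.3.3 with a variance trend and the cell line as a block, two-sided, Benjamini-Hochberg adjusted over all genes tested. The plan allowed a count model should the files hold raw counts; they do not. The line pairs the libraries: each of the 12 correlated best with its own line (0.926 to 0.994, other lines 0.577 to 0.761). The fits over 6 pairs used line by JQ1 as the block. The scripts were tested on simulated data. Named genes are up to 12 per direction by log2 difference (adjusted p below 0.05, then unadjusted with the same sign in 3 lines), the members of the target, PPAR and aryl hydrocarbon receptor lists, up to 4 per other list and the 5 largest per line and direction; other genes, such as members that passed over both settings and E2F1, were named after their values were seen, and a few genes that the rule names are not reported here. The genes and 30 lists were chosen with earlier results of these data known. Alternatives tried were the added constant, the signal filter, TMM and quantile scaling, the block, the variance trend, each line left out, all 12 libraries in 1 fit and, chosen after seeing the data, line means.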

Additional observations from a re-analysis of the deposited data

How the results depend on the processing

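GSK2801 against DMSO gave 0 passing genes under all 13 alternatives, including without the replicate block (1 gene at an unadjusted p below 0.05) and in fits of all 12 libraries (136 with line and treatment, 1147 with a block of line by JQ1). Of 93 genes followed through these alternatives, among them every gene whose mean difference on these 6 libraries is given, 0 passed in any and 6 turned their sign. BAZ2A became −0.0038 after quantile normalization. When 1 line was left out, BAZ2A ranged over −0.013 to 0.062, BRD9 over −0.010 to 0.0070, PPARD over −0.056 to 0.066, FABP5 over −0.074 to 0.034, ACADM over −0.011 to 0.086 and ALDH1A3 over −0.80 to 0.096. Of 30 list medians, 11 turned their sign under at least 1 of 10 alternatives, among them the targets (−0.01 to 0.03), the PPAR receptors and partners (−0.02 to 0.04) and cholesterol synthesis and uptake (−0.09 to 0.06). The PPAR-regulated lipid list ranged over 0.18 to 0.26, the aryl hydrocarbon receptor list over 0.12 to 0.26, the autophagy list over 0.04 to 0.11, the NF-kB list over −0.33 to −0.10 and DNA replication over −0.12 to −0.06. The median of mitosis genes ranged over −0.15 to −0.01.

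Over both settings, 393 genes passed in the fit described. The count was 105 with no filter, 0 with no replicate block, 0 with no variance trend, 0 with line means (chosen after seeing the data), and 0 to 13 when 1 line was left out. With a constant of 10 it was 557, with a mean of at least 10 it was 336, after TMM 487, after quantile normalization 492 and with a robust trend 458. Quantile normalization put 59.1% of the genes that passed on the higher side, against 67.7%. GSK2801 with JQ1 against JQ1 gave 0 to 7 when 1 line was left out, the 7 being without MDAMB231, and 0 otherwise. The difference between the effects with and without JQ1 gave 0 throughout. The causes of these moves were not tested. With JQ1, PDGFB ranged over −0.0055 to 0.52 when 1 line was left out (alternatives for named genes with JQ1 were chosen after seeing the data). Depth limits the genes near 0 (such as FABP4 and AKR1C2 in MDAMB231 and CREB3L3 in HCC1806), whose ratios depend on the added constant. The spread between cultures of 1 line was not measured.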
